A study of Mus musculus with 76 samples.

Results

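The H3K27ac landscape of the wild type mouse diencephalon was compared between an early embryonic day (E11.5) and a late one (E17.5). The series profiled mice carrying a human sequence at the hs754 locus beside wild type mice, by RNA-seq and by ChIP-seq for H3K27ac, H3K4me3, H3K27me3 and CTCF. The data described here are the 5 wild type H3K27ac samples of 76 in all, chosen by genotype and mark: 2 biological replicates at E11.5 and 3 at E17.5. All were homozygous wild type embryos on a C57BL/6 background with no transgene, and every replicate came from 1 litter, of which 6 embryos were pooled at the early and 3 at the late stage. A replicate is therefore a mixture of embryos and of diencephalic cell types, and per the methods less chromatin went into each immunoprecipitation at E11.5 than at E17.5. The antibody lot was found by the study to also bind acetylated lysine 5 of histone H2B. Peaks of the 5 lists were merged where they shared at least 1 bp, which gave 98876 regions.

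H3K27ac is placed by the acetyltransferases p300 and CBP and marks active promoters and enhancers. In the diencephalon, which forms the thalamus, hypothalamus and habenula, early tissue consists largely of dividing neuroepithelial progenitors. By late gestation most of the neurons have been born and have begun to form synapses, and glial cells are being produced. In bulk tissue, fewer cells of a type and less of the mark per cell cannot be told apart.

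Regions more than 1 kb from any start of a protein-coding gene are called distal here. The central 200 bp of 4 of the strongest distal regions called at 1 stage alone are shown to let the 2 sets be compared by eye. Each lies around the summit of its highest peak on the plus strand of mm39, and capitals mark matches, on either strand, to the E-boxes CAGATG and CAGCTG, the AP-1 motif TGANTCA or the TEAD motif CATTCC. The first 2 were called in both E11.5 lists and in no E17.5 list, and lie within Greb1 and Fignl2. The last 2 were called in all 3 E17.5 lists and in no E11.5 list. One lies within Prkag2 and the other is intergenic, 73.0 kb from the start of Calcoco1.
near Greb1, chr12:16840464-16840663: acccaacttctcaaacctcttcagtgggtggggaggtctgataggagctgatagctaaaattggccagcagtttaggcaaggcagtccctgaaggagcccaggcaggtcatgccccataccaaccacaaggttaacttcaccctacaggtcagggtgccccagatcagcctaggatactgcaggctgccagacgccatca
near Fignl2, chr15:100964632-100964831: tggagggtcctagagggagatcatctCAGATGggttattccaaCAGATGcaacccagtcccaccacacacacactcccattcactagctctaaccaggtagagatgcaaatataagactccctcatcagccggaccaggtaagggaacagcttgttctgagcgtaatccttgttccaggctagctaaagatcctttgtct
near Prkag2, chr5:25190966-25191165: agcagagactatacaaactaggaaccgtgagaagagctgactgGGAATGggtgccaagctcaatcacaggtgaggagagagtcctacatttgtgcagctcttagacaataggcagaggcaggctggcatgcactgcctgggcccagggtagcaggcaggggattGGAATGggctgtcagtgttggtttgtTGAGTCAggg
near Calcoco1, chr15:102706067-102706266: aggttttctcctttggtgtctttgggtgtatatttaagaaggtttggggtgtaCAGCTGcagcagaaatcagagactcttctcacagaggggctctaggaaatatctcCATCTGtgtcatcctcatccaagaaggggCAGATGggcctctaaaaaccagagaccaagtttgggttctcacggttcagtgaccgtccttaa

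The Greb1 window held none of these motifs. The Fignl2 window held CAGATG E-boxes only. The Prkag2 window held an AP-1 motif and TEAD motifs, and the Calcoco1 window held E-boxes of both kinds. Over whole classes the shares differed little. CAGATG, a proneural-type E-box, occurred in the 300 bp around the summit of 25.7% of distal regions called at E11.5 alone, 24.6% of those called at E17.5 alone and 25% of all distal regions. The AP-1 motif occurred in 7.52%, 8.97% and 8.79% of the same sets. A motif match is a property of the letters and not a measured binding site.

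The E17.5 lists were longer than the E11.5 lists. E11.5 replicates 1 and 2 held 36150 and 32418 peaks, and E17.5 replicates 1 to 3 held 62720, 74802 and 77419. The lists covered 30.5 and 26.7 Mb at E11.5 against 65.5, 77.5 and 79.7 Mb at E17.5. Median fold enrichment over local background, the measure of peak strength that the peak caller reports, lay between 4.48 and 5.01 in all 5 lists. Over regions present in every list, log2 fold enrichment correlated at 0.887 between the E11.5 replicates and at 0.914 to 0.920 between the E17.5 replicates, but at 0.613 to 0.636 between stages. This correlation is over 17224 regions that share these 5 libraries. Read depth cannot be taken from a peak list, so list length and depth cannot be told apart from a difference in marked sequence. Each stage was therefore also compared with equal numbers of peaks, the 32418 with the smallest q-values of each list. The tissue label fit the marks: all 20 pan-neuronal genes were marked in every E17.5 list, no promoter of the 38 Hox genes, which are silent in the forebrain, was marked in any list, and 10 of 12 muscle and liver genes were unmarked throughout.

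Many more regions were called at E17.5 alone than at E11.5 alone, and most of both were distal. Of the 98876 regions, 25062 (25.3%) were called in all 3 E17.5 lists and in neither E11.5 list, 3606 (3.65%) were called in both E11.5 lists and in no E17.5 list, and 17224 (17.4%) were called in all 5. The remaining 52984 were called in some replicates only. Distal regions made up 22745 of those called at E17.5 alone, 3350 of those called at E11.5 alone and 7355 of those called in all 5 lists. With equal numbers of peaks, the excess at E17.5 shrank from 6.95 times to 1.58 times, with 8895 regions called at E17.5 alone and 5618 at E11.5 alone. That cut is stricter at E17.5, where the lowest -log10 q kept was 7.49 to 9.91, against 2.91 and 1.32 at E11.5. With the same threshold in every list, a -log10 q of at least 5, the excess was 8.70 times, with 17532 and 2015 regions. Without E11.5 replicate 1 the E11.5 set grew to 7068 regions and without replicate 2 to 8595, since the other list then decided alone. Presence in 2 lists against absence in 3 cannot pass a test, as the smallest two-sided Fisher's exact p is 0.1, so single regions are given by their values.

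**Figure D1:**
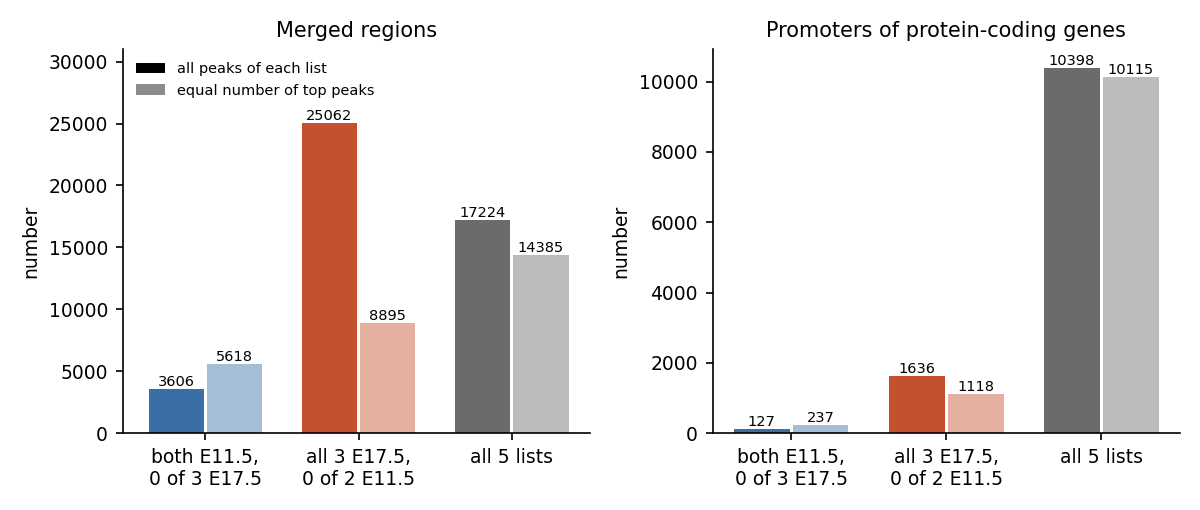
Number of merged H3K27ac regions (left) and of promoters of protein-coding genes (right) in each class. Dark bars use all deposited peaks and light bars equal numbers of top peaks from each list. The left panel shows 25062 regions called at E17.5 alone and 3606 at E11.5 alone with all peaks, and 8895 and 5618 with equal numbers, and the right panel shows 1636 and 127 promoters, or 1118 and 237.

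At promoters the imbalance was larger. Of 21592 protein-coding genes, 1636 (7.58%) had a promoter peak in all 3 E17.5 lists and none at E11.5, 127 (0.588%) the reverse, and 10398 (48.2%) a peak in all 5 lists. With equal numbers of peaks these counts were 1118, 237 and 10115, and at a -log10 q of at least 5 they were 1828, 103 and 9702.

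Regions present in all 5 lists could be tested for a change of enrichment. Fold enrichment at these shared regions was higher at E17.5 as a whole. The mean of the list medians was higher by 1.004 on the log2 scale, and by 1.14 at shared promoters. Before centring, the median difference over single features was 0.817 for regions and 1.02 for promoters. Each list was therefore centred on its median, so that "higher" and "lower" below mean relative to the other shared features of the same list. By limma with Benjamini-Hochberg adjustment, 2233 of 17224 shared regions (13%) were higher at E17.5 and 4610 (26.8%) were lower. Of 10398 shared promoters, 934 (8.98%) were higher and 1627 (15.6%) were lower. The direction depends on the scaling. Without centring, 9949 regions were higher and 774 lower, so the share of called regions that were higher went from 32.6% to 92.8%, and after quantile normalization it was 49.2%. For promoters the share was 36.5%, 97.5% without centring and 50.1% after quantile normalization. All 774 regions and all 188 promoters that were lower without centring were also lower under both other scalings, as were 2093 regions and 879 promoters that were higher. After centring, the values of the stages did not overlap at 60.7% of shared regions and 52.5% of shared promoters.

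**Figure D2:**
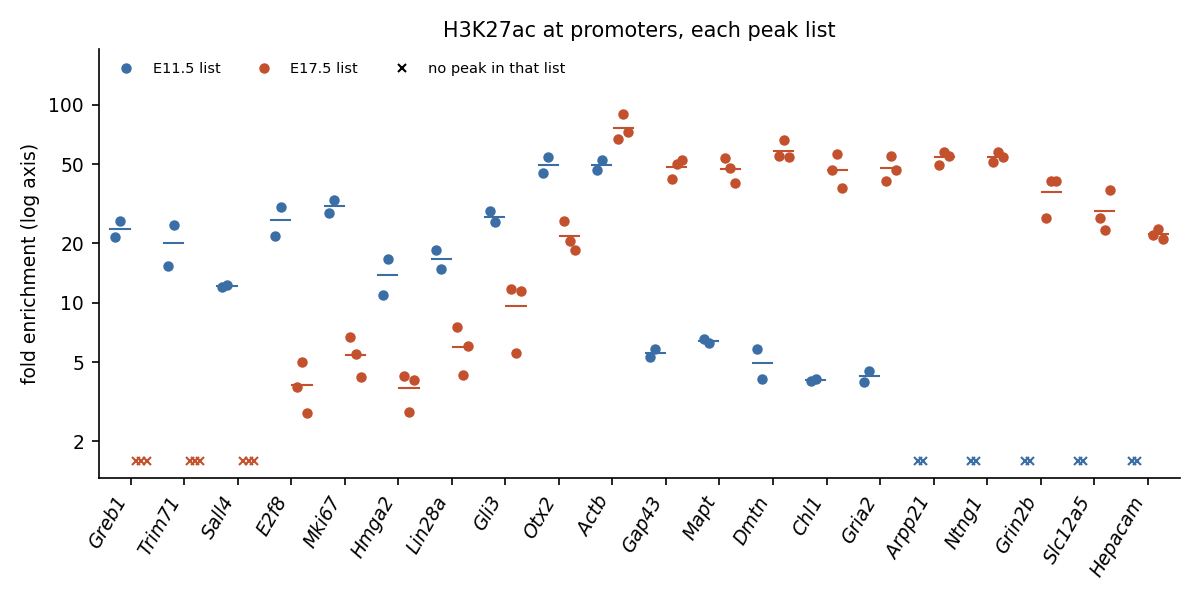
Fold enrichment of H3K27ac over local background (log axis) at promoters of named genes, 1 point for each of the 2 E11.5 and 3 E17.5 lists. Short lines are stage means, and crosses at the bottom stand for lists without a peak, at no measured value. Mki67 was between 28.4 and 32.9 at E11.5 and between 4.20 and 6.69 at E17.5, whereas Gap43 was between 5.32 and 5.86 at E11.5 and between 42.0 and 52.7 at E17.5.

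Genes of cell division and fetal timing lost H3K27ac. Of 20 genes on this list, 18 had a promoter peak in all 5 lists, and 15 of them were lower at E17.5 and 0 were higher, beside 15.6% and 8.98% of all shared promoters. Of these 15, 12 were lower without centring too. The promoter of E2f8, an E2F repressor of the cell cycle, had the largest drop of any shared promoter. Its fold enrichment was 21.8 and 30.3 at E11.5 against 3.74, 5.04 and 2.79 at E17.5, a log2 difference of -3.91 (SE 0.33, adjusted p = 9.59e-06), or -2.78 without centring. Mki67, the proliferation marker Ki-67, was 28.4 and 32.9 at E11.5 against 6.69, 5.51 and 4.20 at E17.5. At both genes every E11.5 value exceeded every E17.5 value by a wide margin. The replication-dependent histone genes H3c8 and H3c15 were also among the 10 promoters with the largest drop, and these genes have close copies, so their peaks are uncertain.

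Among regulators of developmental timing, Hmga2, a chromatin protein of early neural stem cells, fell from 10.9 and 16.6 to 4.27, 2.82 and 4.08, and Lin28a, an RNA-binding inhibitor of let-7 processing, from 18.5 and 14.9 to 7.57, 4.30 and 6.02. Trim71, another target of let-7, had 15.4 and 24.6 at E11.5 and no peak at E17.5. Lin28b was not called: it had 18 in both E11.5 lists and 52.4, 49.1 and 50.4 at E17.5, a log2 difference of 0.36 (SE 0.23, adjusted p = 0.27), and it was called higher without centring (1.49). The RNA of Hmga2 fell with its promoter, from between 204 and 232 CPM (counts scaled to library size) in the 4 E11.5 libraries to between 2.38 and 3.64 CPM at E17.5. In RNA, 19 of the 20 genes were lower at E17.5 and 0 were higher by edgeR's quasi-likelihood test, in which 26.7% of all tested genes were lower and 29% were higher.

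Neural progenitor and Notch genes moved the same way less uniformly. Of 25, 21 promoters were shared, 13 were lower and 1, Six3, was higher, with 4 lower without centring. Six6, of the eye field and hypothalamus, was marked at E17.5 alone, with 5.95, 6.10 and 5.81. Gli3, the repressor of Shh signalling, was 28.9 and 25.4 at E11.5 against 11.8, 5.58 and 11.46 at E17.5. Dll3, a Notch ligand, went from 20.3 and 16.6 to 7.27, 4.59 and 6.01, and Nes, the intermediate filament nestin, from 21.9 and 26.7 to 11.9, 12.2 and 12.5. Mfng, which glycosylates Notch receptors, had 37.8 and 37.3 at E11.5 against 8.15, 9.51 and 5.25 at E17.5. Neurog1, a proneural factor, was marked at E11.5 alone, at 9.13 and 6.87, and its RNA fell from between 23.4 and 42.9 CPM to between 0.147 and 0.887 CPM.

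Promoters marked at E11.5 alone were few, and most of the strongest belonged to genes whose RNA fell. Greb1, an estrogen-responsive gene, had the highest mean enrichment, with 21.5 and 25.7, and its RNA went from between 42.0 and 74.6 CPM to between 3.91 and 5.64 CPM. Sall4, a zinc finger factor of pluripotent and early embryonic cells, had 12 and 12.3, and its RNA went from between 19.7 and 40.6 CPM to at most 0.511 CPM. Sim2, a bHLH-PAS factor, had 9.73 and 9.42, and Slc2a4, the insulin-responsive glucose transporter, had 9.04 and 8.78. In each of these the replicates were close. The 2 replicates were far apart for Slc12a8 (18 and 5.14) and Hgd (19.2 and 3.73), and the RNA of Slc12a8, at most 1.57 CPM in every library, was not called.

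Among transcription factors of diencephalic regions, more shared promoters were lower than higher. Of 40 promoters, 32 were shared, 17 were lower, 2 (Dlx1 and Dlx6, of GABAergic precursors) were higher, and 4 were marked at E17.5 alone. Over all genes, 15.6% of shared promoters were lower, 8.98% were higher, and 7.58% of promoters were marked at E17.5 alone. The counts that were higher or marked at E17.5 alone were near these shares. Without centring, 9 were lower. Otx2, a patterning factor of forebrain and midbrain, was 45.4 and 54.2 at E11.5 against 26.0, 20.6 and 18.4 at E17.5 (log2 difference -2.35, SE 0.26, adjusted p = 4.03e-05). Irx3 was 31.4 and 25.9 against 15.3, 10.9 and 13. Isl1, a LIM factor of hypothalamic neurons, had no peak at E11.5 but 23.9, 23.0 and 18.2 at the later stage, and its RNA rose from between 1.53 and 6.41 CPM to between 46.1 and 55.0 CPM. Gbx2, of thalamic neurons, had 15.3, 23.4 and 21.0 at E17.5 and no E11.5 peak, while its RNA was not called. Otp, of hypothalamic neuroendocrine cells, had 11.1, 13.9 and 8.03. All 4 kept their class with equal numbers of peaks.

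Irx1 and Irx2, the Iroquois genes beside the hs754 locus, were shared promoters. Irx1 was 27.3 and 30.3 at E11.5 against 18.7, 20 and 13 at E17.5 (log2 difference -1.90). Irx2 was 18.7 and 16.2 against 8.16, 18.1 and 21.0, so its uncentred values overlapped between stages. After centring they did not overlap, and Irx2 was called lower (-1.39, limma adjusted p = 0.0077). Without centring it was not called (-0.25).

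Most promoters of midline and roof plate signals were not called. Of 27 Wnt, Shh and related genes, 14 were shared, 4 were lower and 1 was higher, beside 15.6% and 8.98% of all shared promoters. Without centring 1 was lower, though 18 genes of the list were lower in RNA. Gli1, a direct target of Shh signalling, was 14.4 and 18 at E11.5 against 5.13, 4.63 and 5.83 at E17.5. Spry1, a feedback inhibitor of FGF signalling, was 7.30 and 7.83 against 38.6, 37.3 and 41.4. Rspo1, a Wnt agonist, was marked at E11.5 alone, at 4.27 and 3.17, near the low end of called peaks.

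Many neuronal genes were higher or newly marked at E17.5, and 0 genes of the 4 neuronal lists were lower under any of the 3 scalings. Over all genes, 8.98% of shared promoters were higher, 7.58% of promoters were marked at E17.5 alone and 29% of tested genes were higher in RNA. Of 20 pan-neuronal genes, 19 were shared and 10 of these were higher, and 1 more was marked at E17.5 alone. Of 22 synaptic vesicle genes, 15 were shared and 11 higher, and 5 more were marked at E17.5 alone. Of 30 genes of transmitter identity, receptors and the postsynapse, 20 were shared and 11 higher, and 8 more were marked at E17.5 alone. Of 21 ion channels and chloride transporters, 9 were shared and 3 of these higher, and 9 more were marked at E17.5 alone. In RNA, 17, 21, 28 and 19 genes of these lists were higher and 0 were lower. Of the 1, 5, 8 and 9 genes of these lists marked at E17.5 alone, 1, 5, 8 and 8 kept that class with equal numbers of peaks.

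The shared neuronal promoters with the largest gains had low values at E11.5. Gap43, a growth cone protein, had 5.32 and 5.86 at E11.5 against 42.0, 50.2 and 52.7 at E17.5 (log2 difference 1.97, SE 0.25, adjusted p = 9.44e-05). Chl1, a neural adhesion molecule, had 4.05 and 4.15 against 46.7, 56.2 and 37.7, and its RNA rose by 5.19 on the log2 scale. Gria2, an AMPA receptor subunit, had 3.99 and 4.55 against 41.2, 55.2 and 46.7. The largest gain of any shared promoter was at Dmtn, an actin-binding protein, with 5.81 and 4.11 against 55.0, 65.8 and 54.4 (log2 difference 2.44, SE 0.27, adjusted p = 4.03e-05). Its RNA, between 16.7 and 21.9 CPM at E11.5, was between 89.4 and 195 CPM at E17.5. At each of these genes the lowest E17.5 value lay far above the highest E11.5 value.

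Other neuronal promoters went from no call to strong enrichment. Grin2b, an NMDA receptor subunit, had 26.6, 41.1 and 41.2 at E17.5, and its RNA rose from between 3.94 and 9.93 CPM to between 246 and 744 CPM. Grm5, a metabotropic glutamate receptor, had 33.2, 39.3 and 28.9, and Camk2b, a calcium-dependent kinase subunit, 33.4, 33.8 and 37.3. Slc12a5, the chloride exporter KCC2 that sets the polarity of GABA responses, had 26.7, 23.4 and 37.0, and its RNA rose from between 10.9 and 13.4 CPM to between 195 and 286 CPM. Kcna2, a potassium channel, had 18.3, 15.9 and 25.9, and the synaptic vesicle protein gene Syn1 had 20.4, 15.6 and 19.2. Rbfox1, a neuronal splicing regulator, had 14.4, 26.3 and 28.6. None of these had a peak in either E11.5 list. Of 12 activity-regulated genes, 4 were marked at E17.5 alone, 1 of the 6 shared promoters (Mef2d) was higher and 8 were higher in RNA. Mef2c had 16.7, 19.8 and 16.8 at E17.5, Npas4 9.52, 11.3 and 7.44, and Arc 4.85, 7.07 and 6.59.

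The strongest promoters marked at E17.5 alone were not all matched by RNA. Rhof, a small GTPase, had 74.7, 57.7 and 68.6, and its RNA rose from between 2.5 and 3.73 CPM to between 9.95 and 22.3 CPM. Ntng1, an axon guidance protein of thalamic neurons, had 51.3, 57.3 and 54.3, and Arpp21, a phosphoprotein of neurons, 49.4, 57.6 and 55.2, each with higher RNA. Ptpn6, a phosphatase best known from blood cells, had 49.9, 52.0 and 60.3, whereas its RNA was between 2.55 and 4.41 CPM at E11.5 and between 0.598 and 3.13 CPM at E17.5 and was not called (adjusted p = 0.076). Ggt1 had 57.8, 42.3 and 45, and its RNA, at most 1.93 CPM, was not called either.

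Some glial genes were marked at E17.5 alone and others at both stages. Of 26 astrocyte and NFI genes, 9 were marked at E17.5 alone and 0 at E11.5 alone, and of 14 shared promoters 2 were higher and 4 lower (1 without centring), with 20 higher in RNA. Nfix, a nuclear factor I gene of late progenitors and glia, had 24.4, 27.3 and 19.8 at E17.5. Hepacam, an astrocyte adhesion molecule, had 22.1, 23.7 and 21.1, Aldoc, a glycolytic enzyme, 14.2, 15.4 and 14.5, and Apoe, a lipid carrier, 7.27, 10.5 and 8.87. Of 19 oligodendrocyte lineage genes, 7 were marked at E17.5 alone, 0 at E11.5 alone, 3 in all lists and 6 in none, and 15 were higher in RNA. Olig1 had 7.04, 14.7 and 15.2, Sox10, the lineage's master regulator, 8.38, 5.85 and 8.10, and Pdgfra, the receptor of its precursors, 8.38, 6.60 and 6.77. The myelin genes Mog and Mag had no promoter peak in any list. With equal numbers of peaks, 7 of 9 astrocyte and 5 of 7 oligodendrocyte genes kept that class.

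**Figure D3:**
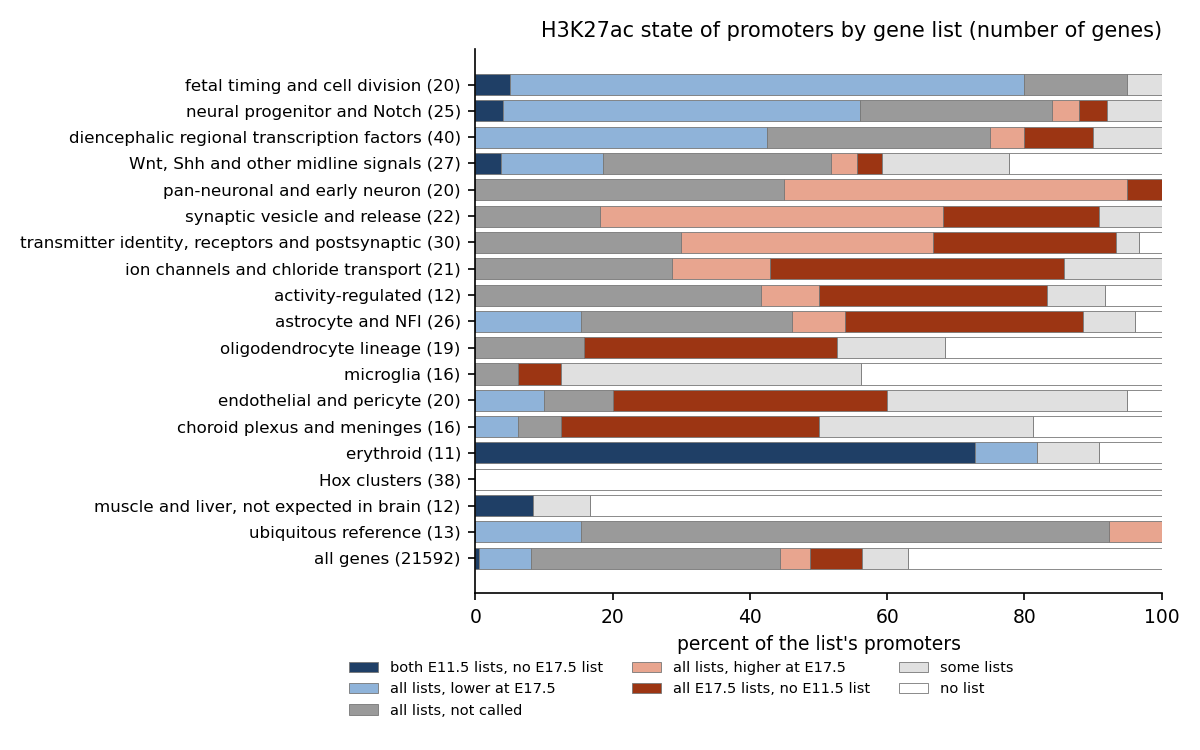
Percent of each gene list's promoters in each H3K27ac state, with the number of genes in brackets and all protein-coding genes in the bottom bar. Promoters in all 5 lists are split by the limma call on centred values. Neuronal lists have no member in a lower or E11.5-only class, the cell division list has 15 of 20 lower, and the erythroid list has 8 of 11 marked at E11.5 alone.

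Markers of cells other than neural ones also moved with stage. Of 11 erythroid genes, 8 were marked at E11.5 alone and 1 was shared and lower. All 8 kept their class with equal numbers of peaks, but that cut shortens mainly the E17.5 lists and hardly checks this class. Slc4a1, the red cell anion exchanger, had 8.86 in both E11.5 lists, and Hba-x, an embryonic globin, had 5.82 and 6.14. Summed over the 11 genes, RNA was between 1794 and 3766 CPM at E11.5 and between 60.5 and 294 CPM at E17.5. The part of blood cells in the E11.5 regions was not tested. Of 20 endothelial and pericyte genes, 8 were marked at E17.5 alone, such as Cldn5, a tight junction protein, at 6.82, 7.32 and 7.87, and 2 of 4 shared promoters were lower (0 without centring). Of the erythroid genes, 5 were at 0 CPM in at least 1 library. The summed RNA of the endothelial list was between 552 and 648 CPM at E11.5 and between 627 and 860 CPM at E17.5. Of 16 microglia genes, 1, P2ry12, was marked at E17.5 alone, and its values of 3.85, 2.87 and 4.17 were lost with equal numbers of peaks. Of 16 choroid plexus and meningeal genes, 6 were marked at E17.5 alone at mean values of 3.87 to 4.87, and 0 of these remained with equal numbers of peaks. Of these 6, Twist1, Prrx1, Col1a2 and Col3a1 had lower RNA at E17.5, Foxc2 was not called, and Ttr, the transthyretin gene of choroid plexus epithelium, had higher RNA (log2 difference 9.18). Over the whole list 8 genes were lower and 4 higher in RNA, and the summed RNA of the list was between 1846 and 2243 CPM at E11.5 and between 671 and 1047 CPM at E17.5. Of 13 ubiquitously expressed reference genes, all were shared. Tbp was higher, and Gapdh and Gusb were lower, but at these the uncentred differences were 0.21 and 0.27 and not called.

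Distal regions shared between stages changed over a range as wide as that of promoters. The region with the largest gain lay 22.5 kb from Zfr (chr15:12091264-12095146), with 2.65 and 5.12 at E11.5 against 49.4, 55.1 and 52.5 at E17.5 (log2 difference 2.82, SE 0.30, adjusted p = 7.46e-06). The next, 59.5 kb from Ppara (chr15:85550315-85559163), had 3.19 and 3.31 against 43.2, 59.1 and 37.5. It was also marked by H3K4me3 and by H3K27me3 in all lists of both stages. It lies beside the strongest distal region marked at E17.5 alone, 69.3 kb from Wnt7b, which had 49.8, 53.9 and 57.4. That region overlapped H3K27me3 in all lists of both stages and H3K4me3 in all E17.5 lists. The RNA of Wnt7b was lower at E17.5 (log2 difference -2.31), and the nearest gene is a label of position only. Among regions that fell, 1 lay 14.9 kb from Gpam (chr19:55130581-55134317), with 26.3 and 24.5 against 3.97, 3.32 and 3.97 (-3.77, SE 0.27, adjusted p = 6.97e-07), and the RNA of Gpam was not called. Another lay within Pik3c2b, 31.7 kb from its start, with 32.4 and 36.9 against 8.15, 6.71 and 6.49. None of the values of these stages overlapped.

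Distal regions called at 1 stage alone had similar median enrichment at both stages, 4.30 and 4.29 in the E11.5 lists for those called at E11.5 alone, and 4.67, 5.06 and 5.05 in the E17.5 lists for those called at E17.5 alone. The upper ends differed. The 10 strongest of 3350 E11.5 regions had mean values from 12 to 16.9, and the 10 strongest of 22745 E17.5 regions from 39 to 53.7, on values without centring. The strongest at E11.5 lay within Kcnh2 (14.0 and 19.9), Greb1 (14.7 and 15.4) and Fignl2 (12.4 and 16.6), the latter 2 being the sequences shown above. The Greb1 region, 9.63 kb from the gene's start, thus had the same class as the Greb1 promoter. Another lay 193 kb from Irx3 (14.4 and 11.1). At E17.5, regions within Prkag2 had 37.2, 43.9 and 64.6 and near Calcoco1 36.7, 48.4 and 45.7, and a region within Rasal1, a Ras GTPase activator whose RNA rose by 7.13 on the log2 scale, had 33.0, 48.5 and 37.3. The Prkag2 and Calcoco1 regions overlapped H3K4me3 in all E17.5 lists, and the Rasal1 region in none. Over all distal regions called at E17.5 alone, 8.50% overlapped it in all E17.5 lists.

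Distal regions called at 1 stage alone were also counted by their nearest gene. Zeb2, a repressor with roles in neural crest and neuronal migration, was nearest to 13 distal regions called at E11.5 alone, followed by Ephb2 with 12, Adgrl2 with 10 and Mecom with 10. The same genes were nearest to 2, 0, 10 and 2 distal regions called at E17.5 alone, so the counts at Adgrl2 were equal. Of these, Zeb2, Ephb2 and Mecom fell in RNA (by 0.89, 1.75 and 2.43 on the log2 scale), and Adgrl2 was not called. Ntm, a neuronal adhesion molecule, was nearest to 55 distal regions called at E17.5 alone, followed by Zfhx3 with 51, Rbfox1 with 49, Camta1 with 39 and Celf4 with 38, and all 5 rose in RNA, by 1.12 to 4.11 on the log2 scale. Long genes offer more sequence to which a region can be nearest. At Zeb2 (chr2:44873644-45007464, minus strand), 11 of the 13 regions lay inside the gene, 2 other regions were called at E17.5 alone and 8 in all lists. At Ntm (chr9:28906045-29874437, minus strand), 55 of 56 regions called at E17.5 alone were distal, and 42 of these 55 lay inside the gene. Another 3 regions were called in all lists and 0 at E11.5 alone. Mean values of the E11.5 regions at Zeb2 were between 2.80 and 5.91, and those of the E17.5 regions at Ntm between 2.45 and 30.4, with medians of 4.25 and 4.99.

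Counted by the nearest gene's list, the numbers of distal regions called at 1 stage alone are set beside those over all genes, which were 22743 at E17.5 alone and 3349 at E11.5 alone. Genes of transmitter identity, receptors and the postsynapse were nearest to 101 distal regions called at E17.5 alone and 2 called at E11.5 alone, and pan-neuronal genes to 190 and 16. Astrocyte and NFI genes were nearest to 117 and 6. Oligodendrocyte lineage genes were nearest to 41 and 6, about the ratio over all genes. Muscle and liver genes, not expected in brain, were nearest to 26 and 2, so a strong lean to E17.5 was not particular to neural genes. The order was the other way for genes of cell division and fetal timing, with 10 regions called at E17.5 alone and 14 at E11.5 alone, and for erythroid genes, with 3 and 12. Neural progenitor and Notch genes had 65 and 32, and regional transcription factors 162 and 42. These counts were not tested, and they depend on the length and spacing of the genes.

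**Figure D4:**
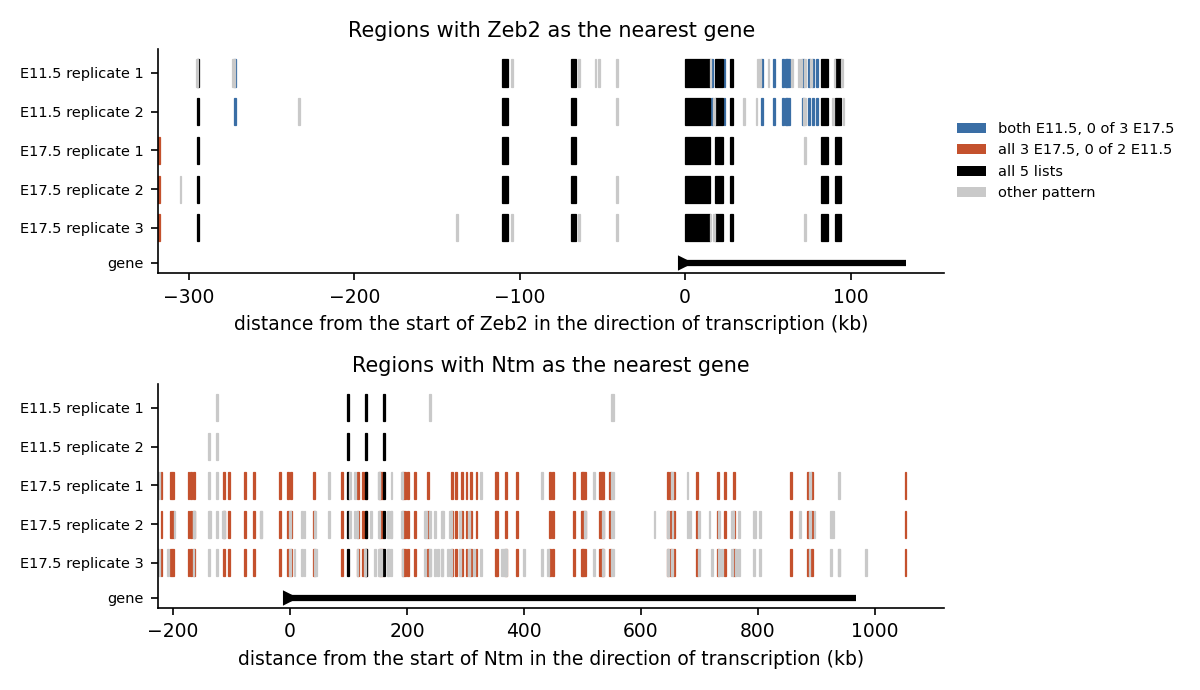
Peaks in each of the 5 lists at regions whose nearest protein-coding start belongs to Zeb2 (top) or Ntm (bottom), by distance from the gene's start (kb), with 1 row per list and the gene as a black line. Colour gives the region's class, and regions more than 350 kb upstream of Zeb2 are not drawn, so that 12 of the 13 Zeb2 regions called at E11.5 alone are shown. At Ntm, the 56 regions called at E17.5 alone lie along and beside the gene, and 3 regions appear in all lists.

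The other marks and CpG content, which the grouping did not use, are given by class as shares without a test. At promoter regions called at E17.5 alone, H3K27me3, the Polycomb mark of silenced genes, was present in both E11.5 lists at 48.4% and in all 3 E17.5 lists at 44.3%, beside 22.7% and 21.0% of all promoter regions. At shared promoter regions that were higher at E17.5 the share went from 29.9% to 13.1%, and at those that were lower from 18.8% to 28.8%. At promoter regions called at E11.5 alone it went from 20.3% to 30.9%. The number of lists differs between stages, so a share at E17.5 has to meet 3 lists rather than 2. H3K4me3, the mark of promoters, covered 98.2% and 97.9% of shared promoter regions at the 2 stages, 53.1% and 31.6% of those called at E11.5 alone, and 69.8% and 75.4% of those called at E17.5 alone. At shared distal regions, H3K4me3 went from 49.5% to 60.2% where H3K27ac was higher and from 29.2% to 18.7% where it was lower.

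CpG-rich sequence was most common in regions called in every list. A 300-bp window around the summit met the thresholds for a CpG island (GC of at least 50%, observed over expected CpG of at least 0.6) at 78.4% of promoter regions called in all lists, 43.9% of those called at E17.5 alone and 22.7% of those called at E11.5 alone. At distal regions the shares were 8.02%, 2.11% and 0.926%. CTCF peaks, in all 3 E17.5 lists, overlapped 25.6% of distal regions called in all lists, 12.2% of those called at E17.5 alone and 4.63% of those called at E11.5 alone. Regions called in all lists were also wider, with a median of 1978 bp, against 1109 bp at E17.5 alone and 650 bp at E11.5 alone, and wider regions overlap other peaks more often.

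RNA-seq of separate wild type samples, with 4 libraries per stage and 18124370 to 24272569 counts on genes each, gave a second readout of the promoter classes. Of 18583 genes tested, 5393 (29%) were higher at E17.5 and 4963 (26.7%) lower. Of 101 tested genes with a promoter marked at E11.5 alone, 88 (87.1%) were lower and 4 higher, with a median log2 difference of -3.13. Of 1470 tested genes with a promoter marked at E17.5 alone, 1036 (70.5%) were higher and 118 (8.03%) lower, with a median of 1.98. Among shared promoters, RNA was higher for 60.7% of 907 genes whose promoter was higher, and lower for 57.1% of 1556 genes whose promoter was lower. Over all 14336 tested genes with an annotated promoter, 32.3% were higher and 25.7% lower. E17.5 replicate 1 stood apart in RNA, and without it the 4 shares were 91.2%, 72.2%, 64.1% and 67.1%, beside 38.4% and 37.3% of all genes. The number of genes with lower RNA among promoters marked at E17.5 alone then rose from 118 to 195 (13.1%).

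**Figure D5:**
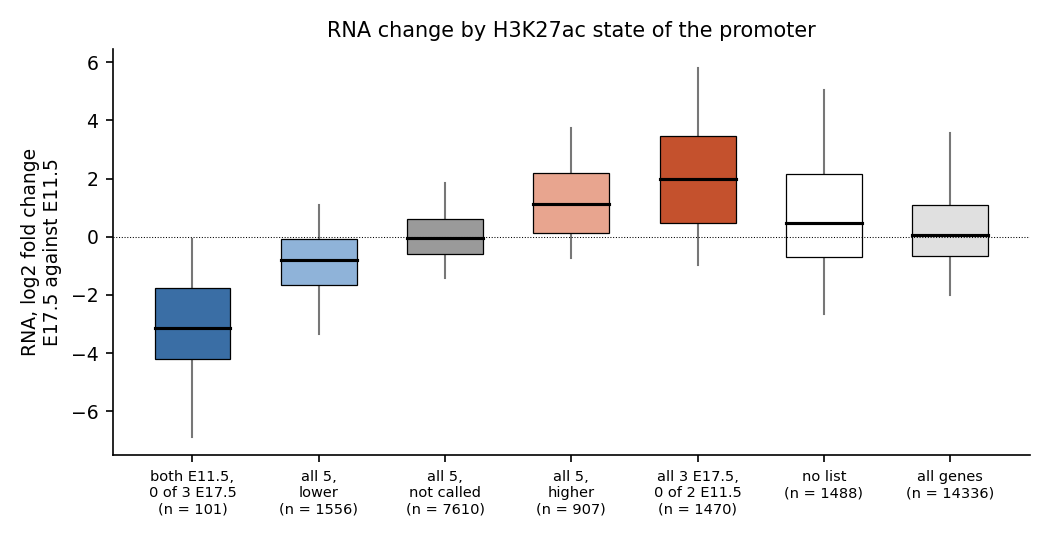
Log2 difference in RNA, E17.5 over E11.5 (edgeR), by promoter H3K27ac class. Boxes span the quartiles with the median, and whiskers reach the 5th and 95th percentiles over genes. The median is -3.13 for promoters marked at E11.5 alone and 1.98 for promoters marked at E17.5 alone.

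RNA of the nearest gene was also set beside the distal regions, without a test. Of 1698 tested genes nearest to 3 or more distal regions called at E17.5 alone and none at E11.5 alone, 50.9% were higher and 15.3% lower. Of 411 genes nearest to 10 or more such regions, 61.3% were higher and 11.2% lower. Of 56 genes nearest to 3 or more distal regions called at E11.5 alone and none at E17.5 alone, 53.6% were lower and 5 genes were higher. Over all 14336 tested genes, 32.3% were higher and 25.7% lower. Of 8046 tested genes nearest to 0 of either kind, 26.2% were higher and 27.6% lower.

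The 5 H3K27ac lists of humanized embryos, from other litters, were not used to form the classes. Outside chromosome 13, 2089 of 3432 regions called at E11.5 alone in wild type (60.9%) met the same definition in humanized lists and 0 the opposite one, beside 4.22% of all regions. Of regions called at E17.5 alone, 50.9% met the same definition and 8 regions the opposite one, beside 14.9% of all regions.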

How the data were processed

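Reads were aligned by the authors to mm39 with Bowtie2 2.4.2, multi-mapping and duplicate reads were removed, and peaks were called per replicate with MACS2 2.2.7.1 against the matched input. The deposited lists give each peak's fold enrichment over local background and its -log10 q. RNA reads were counted per gene by the authors with STAR 2.7.9a, and the deposited unstranded counts were used, with 48.1% to 55.3% of reads not on genes left out. The H3K27me3 lists were used as deposited.

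Peaks were merged at 1 bp overlap, each region taking a list's highest fold enrichment. Promoters were 1000 bp on each side of protein-coding starts (GENCODE M39), and the nearest such start named a distal region. Log2 fold enrichment, centred on the list median, was tested with limma 3.58.1 where all 5 lists had a peak. Counts were tested with edgeR 4.0.16 (filterByExpr, TMM). Adjusted p under 0.05 was called. DESeq2 1.42.0 was an alternative for RNA. Each replicate was 1 litter. Other thresholds, scalings and left-out replicates were tried, and RNA by promoter class without E17.5 replicate 1 and gene lists with equal numbers of peaks were added after seeing the data.

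Named were the 10 regions with the largest changes each way and the 10 strongest promoters and distal regions of each stage, the 5 genes nearest to most exclusive distal regions, up to 6 members of each gene list, and Irx1 and Irx2. Lin28b and other genes outside this rule were chosen after their values were seen. A few genes that meet the rule are not reported here. Members and lists were chosen with earlier results of these data known. The tests were checked on simulated data.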

Additional observations from a re-analysis of the deposited data

Results flagged for a closer look

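RNA of named genes, counts on genes and the share of counts not on genes made 78 groups of 4 libraries. In 9 of these, all of named genes, 1 library lay far from the other 3, by Dixon's test of the gap over the range at the 95% level. Chance alone flags about 1 in 20 independent groups, but these groups share the same libraries. In 7 of the 9 the library was E17.5 replicate 1. It was highest for Nfix (225 CPM, the others 81.7 to 86.1), Cldn5 (50.1 CPM, the others 18.4 to 22.6), Etv4 (17.1 CPM, the others 7.65 to 8.90), Slc4a1 (9.86 CPM, the others 0.426 to 1.90), Dmtn (195 CPM, the others 89.4 to 103) and Mfng (5.90 CPM, the others 2.64 to 2.84), and lowest for Tbp (30.9 CPM, the others 49.2 to 51.9). All these genes except Tbp were called in RNA, each in the direction given by its other 3 libraries as well. At E11.5, replicate 3 was highest for P2ry12 (2.704 CPM, the others 0.736 to 1.06) and replicate 1 for Slc12a8 (1.43 CPM, the others 0.988 to 1.06). Whether tissue composition or RNA quality differed in these libraries was not tested.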

How the results depend on the processing

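Of 128 recomputed counts, 108 stayed within 1.5 times of the reported value. With equal numbers of top peaks, 5618 regions were called at E11.5 alone and 8895 at E17.5 alone, 237 promoters at E11.5 alone, and 2934 shared regions were lower. At a -log10 q of at least 5, 2015 regions were called at E11.5 alone. Without centring, 9949 shared regions and 7476 promoters were higher and 774 and 188 lower. After quantile normalization, 2785 regions and 967 promoters were lower. With wild type and humanized lists in 1 fit, 1613 promoters were higher. Leaving out each list in turn gave 3756 to 8595 regions at E11.5 alone (7068 without E11.5 replicate 1 and 8595 without replicate 2), 2955 to 4560 regions lower, 453 to 768 promoters higher and 713 to 1431 lower. Without E11.5 replicate 2 the last 3 counts were lowest, and without replicate 1 they were 3024, 533 and 756, and with 1 list left at E11.5 its spread is assumed to be that of the other stage. Leaving out E17.5 replicate 1 of the RNA raised the RNA calls from 5393 to 6968 higher and from 4963 to 7026 lower. DESeq2 called 7112 and 5159 genes of 28168. Apart from the values just given, the cause of these changes was not tested.

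Signs changed without centring for Gapdh (0.21), Gusb (0.27) and Actb (0.62), and for Bdnf when the mean of a promoter's peaks was used (-0.92 against 0.59). Of the recomputed log2 differences of named promoters, 587 kept direction and call, 21 lost the call and 6 gained it. All 120 of named regions kept both. Of 81 named promoters marked at 1 stage alone, 71 kept their class at a -log10 q of at least 5 and 71 with equal numbers of peaks. With promoters of 2500 bp on each side, 70 kept it. Leaving out a list cannot change the class of a promoter already marked at 1 stage alone, so it was no check on these. Equal numbers of peaks take none from E11.5 replicate 2 and few from replicate 1, so they hardly check promoters marked at E11.5 alone.

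Replicate numbers name litters and do not pair stages: deviations of same-numbered H3K27ac lists correlated at 0.0019 and -0.0138. In RNA, deviations of same-numbered libraries 1 to 4 correlated at 0.006, -0.504, 0.346 and 0.055. Those of differently numbered libraries ranged from -0.607 to 0.609, so RNA deviations were not all near 0 but did not follow the number. With the number as a replicate block, 2082 regions were higher and 4290 lower, 929 and 1610 promoters, and 4883 and 4583 genes in RNA.

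Peak lists hold no read depth, and the stages differ in list length, in chromatin input and in the number of lists, and these cannot be told apart from stage. With 2 lists at E11.5, that stage's spread is poorly known.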

Other observations

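Some promoters and their genes' RNA went opposite ways. Of promoters marked at E17.5 alone, 118 belonged to genes with lower RNA at E17.5, led in fold enrichment by Mettl2, Anxa2, Pnpla7, Erbb2 and Elac2. Without RNA replicate 1 of E17.5 there were 195 such genes. Their median mean fold enrichment was 5.31, against 9.04 for the 1036 genes with higher RNA, and 44 of the 118 kept the class with equal numbers of peaks, against 770 of the 1036. Of promoters marked at E11.5 alone, 4 belonged to genes with higher RNA at E17.5, namely Nxpe4, Ackr1, Adcy7 and Kcne2. Of the 88 with lower RNA, 86 kept the class with equal numbers of peaks. That cut takes no peak from E11.5 replicate 2 and few from replicate 1, and it adds none at E17.5. It therefore hardly checks this class and is not comparable with the 770 of 1036.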
